A study of Mus musculus with 9 samples.

Results

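Genes for glutathione synthesis and transfer, peroxide and superoxide removal, the thioredoxin system and the NRF2 pathway were taken from the mRNA values of mouse renal cortex by their symbols. The symbols chosen were the glutathione S-transferases (Gsta, Gstk, Gstm, Gsto, Gstp, Gstt, Gstz and the microsomal Mgst), the glutathione peroxidases (Gpx), the peroxiredoxins (Prdx), thioredoxins and their reductases (Txn and Txnrd), and Gclc, Gclm, Gss, Gsr, Cat, Sod1, Sod2, Sod3, Nqo1, Hmox1, Srxn1, Nfe2l2 and Keap1. In total 57 of the 21950 genes with mRNA values matched, and 51 of them reached a mean of at least 0.1 FPKM (fragments mapped to a transcript, scaled for its length and for all fragments mapped in the library) over the 9 libraries. Gpx5 was listed at 0 in every library, and Gpx2, Gstm3, Gstt4, Mgst2 and Prdx6b stayed below the minimum. Mgst2 lay just below it with a mean of 0.0551 FPKM, and Gsto2 just above it with 0.262 FPKM.

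The study compared male db/db mice on the C57BL/KsJ background, which are homozygous for the db mutation of the leptin receptor and become obese and diabetic, with lean db/m littermates. The dbR group of 3 db/db mice received rosiglitazone, which activates the nuclear receptor PPARγ, by gavage (20 mg/kg/day), starting at an age of 7 weeks and lasting 8 weeks. The dbdb group (3 db/db mice) and the control group (3 db/m mice) received the vehicle, and 1 library was made from the renal cortex of each mouse at 15 weeks of age. The db mutation was present from conception in every cell of both db/db groups, and no group of lean mice received the drug.

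Glutathione is a tripeptide made by glutamate-cysteine ligase (a catalytic subunit, Gclc, and a modifier subunit, Gclm) and glutathione synthetase (Gss), and its oxidised form is returned to the thiol by glutathione reductase (Gsr). Glutathione S-transferases join it to electrophiles such as drugs and products of lipid peroxidation, whereas peroxidases, peroxiredoxins, catalase and superoxide dismutases remove peroxides and superoxide. NRF2 (Nfe2l2), which KEAP1 holds at a low level in resting cells, activates many of these genes through antioxidant response elements, and the proximal tubule of the kidney cortex is rich in both glutathione metabolism and plasma glutathione peroxidase (Gpx3).

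In the untreated diabetic cortex the genes of glutathione synthesis were lower than in control mice, and most of the glutathione S-transferases that changed were higher. Compared with the control group, 24 of the 51 genes passed the test in dbdb mice (limma, Benjamini-Hochberg adjusted p under 0.05 over all genes tested), 13 upregulated and 11 downregulated. This is 47.1% of them, where 26.4% of all 14537 genes tested passed in this comparison. At an unadjusted p under 0.05 there were 27 (52.9%, where 38.8% of all genes passed), of which 12 were lower (23.5%, where 19.7% of all genes were). The control and dbdb libraries did not overlap for 27 of the 51 genes either (52.9%, where 42.4% of all genes did not). By direction, 25.5% of the 51 genes were upregulated, where 13.1% of all genes were, and 21.6% downregulated, where 13.4% were. Of the 13 upregulated genes 11 were glutathione S-transferases, and the others were Gpx6 and Srxn1. Transferases are 24 of the 57 genes matched by symbol. The median log2 fold change of the 51 genes was -0.04, beside -0.003 over all genes. In dbR vs. dbdb, 4 of the 51 genes passed (7.84%, where 0.743% of all genes did), and all 4, Prdx4, Gpx8, Gstt1 and Nqo1, were upregulated. In dbR vs. control, 27 passed (52.9%, where 24.1% of all genes did). Of the 51 genes 20 were upregulated (39.2%, where 12.3% of all genes were) and 7 downregulated (13.7%, near the 11.8% of all genes). The 3 comparisons use the same 9 libraries and share groups, so they are not independent of each other.

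**Figure D1:**
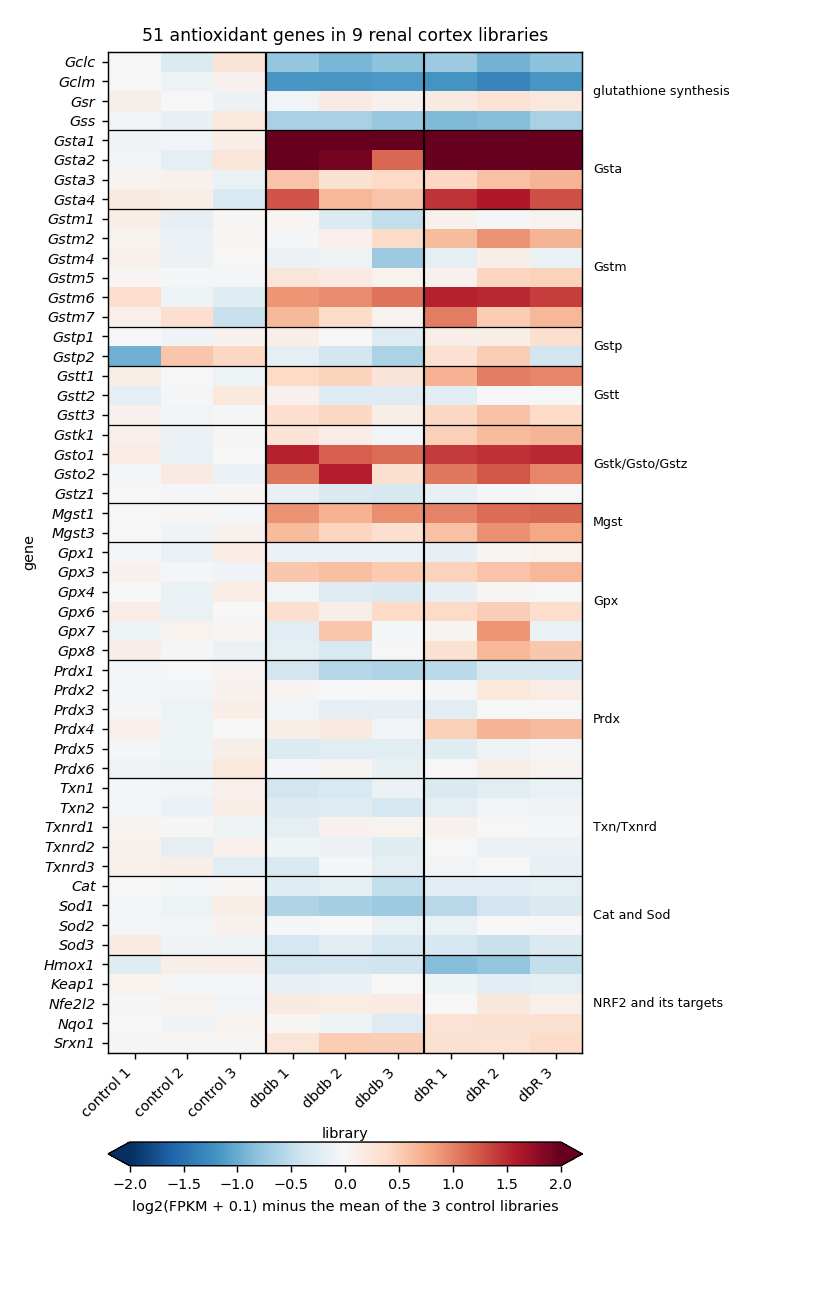
Level of the 51 genes (rows, grouped by family) in the 9 libraries (columns), as log2(FPKM + 0.1) minus the mean of the 3 control libraries, with colours cut off at 2 in either direction. Gclc, Gclm and Gss are blue and the Gsta genes, Gstm6, Gsto1, Mgst1 and Mgst3 are red in all 6 libraries of db/db mice, treated or not.

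Lepr, which carries the db mutation, was at 1.05 to 1.23 FPKM in control libraries, 0.304 to 0.652 in dbdb and 0.335 to 0.512 in dbR libraries, so the db/db mice of the untreated group differed from control mice by -1.31 on the log2 scale (adjusted p = 0.0043 from limma). Read counts are not part of FPKM, and the relative depth of the libraries, estimated from the smallest steps of the values, lay between 0.914 and 1.14. Markers of the proximal tubule summed to 4245 to 5069 FPKM in control, 4028 to 5004 in dbdb and 4950 to 5180 in dbR libraries, while those of adipocytes summed to at most 0.756 FPKM in any library. Markers of the distal convoluted tubule (2 of 2), principal cells (3 of 4), intercalated cells (3 of 3), hepatocytes (2 of 3) and podocytes (2 of 5) had risen in dbdb mice, where 13.1% of all genes had. Those of endothelium (4 of 5) and macrophages (3 of 6) had fallen, where 13.4% of all genes had, and of 9 proximal tubule markers 2 had risen and 1 had fallen. In bulk cortex, fewer cells of a type and less RNA per cell cannot be told apart. The sum of all mRNA FPKM was lower in dbdb (594838 to 647995) than in control libraries (675346 to 730057). When mitochondrial genes were removed and all libraries brought to an equal sum, the median log2 fold change of all genes became 0.15 in dbdb vs. control, and 19 of 24 passing genes were then higher (79.2%, where 78.3% of all genes called were). Quantile normalization gave 16 higher and 8 lower (66.7% higher, where 51.1% of all genes called were). With mitochondrial genes left out, Gpx3, Gstk1, Gstm5, Nfe2l2, Prdx2 and Prdx4 also passed as higher in dbdb mice. Relative to that median of all genes, the log2 fold changes stayed close to those given here, for example -0.30 for Cat, whose value as deposited was -0.31.

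Promoter windows of RefSeq (GRCm38.p6, each spanning a transcription start) were at hand for 44 of the 51 genes. The genes without one were Gclc, Gsr, Gsta4, Gstt2, Hmox1, Prdx6 and Sod3. Each window is short (chr3:122245307-122245606 for Gclm), so an element further upstream would not be seen. The core of the antioxidant response element, TGACNNNGC on either strand, occurred in at least 1 window of 10 of these 44 genes (22.7%) and of 13.99% of all 27025 genes with a window. The 10 genes were Gclm, Gsta3, Gstm5, Gstm7, Mgst1, Nfe2l2, Prdx1, Sod1, Srxn1 and Txnrd1. They include 3 genes that were lower in dbdb mice (Gclm, Prdx1 and Sod1) and 3 that were higher (Gsta3, Mgst1 and Srxn1). The direct repeat of PPAR type was in none of these windows and in 0.0396% of all 32851 windows. A match of letters is not a shown binding site. The 150 bases before the start are given for 2 genes that fell and 2 that rose, with the match in capitals and each read 5′ to 3′ on the strand of its gene, which is the + strand in all 4. The stretches lie at chr3:122245407-122245556 (Gclm), chr4:116685449-116685598 (Prdx1), chr6:138140377-138140526 (Mgst1) and chr1:21240435-21240584 (Gsta3). In Gclm, Prdx1 and Mgst1 the core is on the opposite strand, so the capitals are its reverse complement.
Gclm: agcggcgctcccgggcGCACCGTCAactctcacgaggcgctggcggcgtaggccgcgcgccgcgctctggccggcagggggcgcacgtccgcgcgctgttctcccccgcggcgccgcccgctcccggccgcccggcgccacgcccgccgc
Prdx1: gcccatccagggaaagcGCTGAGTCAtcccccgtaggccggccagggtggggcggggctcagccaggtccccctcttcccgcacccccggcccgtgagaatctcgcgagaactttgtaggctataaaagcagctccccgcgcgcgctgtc
Mgst1: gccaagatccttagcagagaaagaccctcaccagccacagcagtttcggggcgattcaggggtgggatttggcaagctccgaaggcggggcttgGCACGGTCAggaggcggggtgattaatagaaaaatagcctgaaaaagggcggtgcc
Gsta3: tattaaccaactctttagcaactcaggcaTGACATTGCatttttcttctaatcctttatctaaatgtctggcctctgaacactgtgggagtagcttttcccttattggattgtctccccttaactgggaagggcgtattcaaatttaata

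All 3 genes that build glutathione were downregulated in dbdb mice, where 13.4% of all genes were, and their levels in dbR mice were close to those in dbdb mice. Gclm (ENSMUSG00000028124), the modifier subunit of the ligase, was at 168, 156 and 177 FPKM in the control libraries, at 74.4, 74.5 and 74.7 in the dbdb libraries and at 72.8, 66.4 and 73.9 in the dbR libraries. Its highest level in any db/db mouse was thus less than the lowest in a control mouse, and the dbdb libraries lay very close together. Relative to control, Gclm in dbdb mice fell by 1.16 ± 0.06 (log2, SE, adjusted p = 7.55e-06), and the treated mice differed from the untreated db/db mice by -0.07 (95% interval -0.21 to 0.07). Another gene, Gm6061, overlaps Gclm on the same strand, and its level was not analysed here. Gclc (ENSMUSG00000032350), the catalytic subunit, was at 74.7, 61.5 and 89.0 FPKM in control, 43.5, 39.4 and 42.2 in dbdb and 44.7, 38.5 and 42.0 in dbR libraries. Here too the control libraries were all above those of db/db mice, but spread more widely. The fold change of Gclc in dbdb vs. control was -0.83 ± 0.12 (SE, adjusted p = 0.00082) and its value in dbR vs. dbdb was -0.00 (95% interval -0.26 to 0.26). Gss (ENSMUSG00000027610), which adds the glycine, was at 159, 148 and 191 FPKM in control, 106, 105 and 97.9 in dbdb and 89.7, 91.3 and 105 in dbR libraries, a log2 fold change of -0.68 ± 0.10 (SE, adjusted p = 0.000895) in dbdb vs. control. The dbR libraries of Gss overlapped those of dbdb (log2 fold change -0.11, 95% interval -0.33 to 0.11). All 3 calls in dbdb vs. control held under all 21 alternative settings.

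The reductase that recycles glutathione did not share this pattern. Gsr was at 105, 95.7 and 89.2 FPKM in control, 93.1, 108 and 102 in dbdb and 109, 118 and 112 in dbR libraries. The groups of untreated mice overlapped, and all 3 dbR libraries lay above both, but neither comparison with dbR passed the test (adjusted p = 0.309 against dbdb and 0.0561 against control, the latter past the threshold in 5 of 21 alternatives). The summed level of Gclc, Gclm and Gss was 365 to 458 FPKM in control, 215 to 224 in dbdb and 196 to 221 in dbR libraries.

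**Figure D2:**
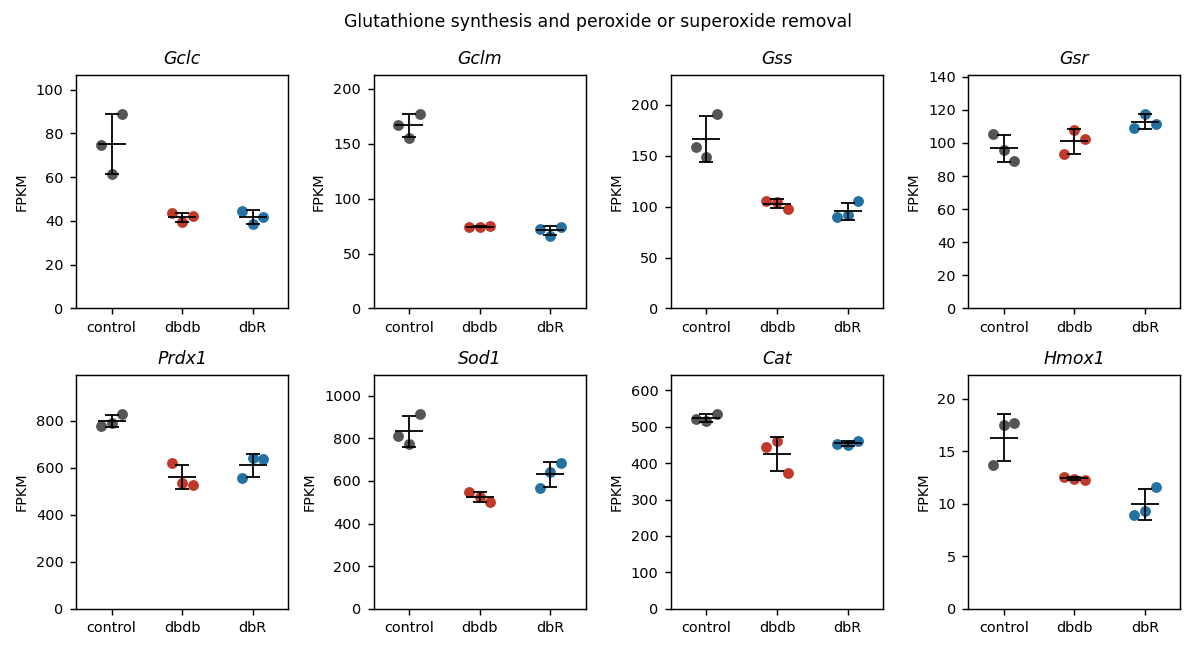
FPKM (y axis, from 0) of 4 genes of glutathione synthesis and recycling and of 4 genes that remove peroxide or superoxide or break down haem, in control, dbdb and dbR mice. Points are libraries, long horizontal lines the mean and whiskers the SD of 3 libraries. Gclm is at 156 to 177 FPKM in control and at 66.4 to 74.7 in the 6 db/db libraries, whereas Gsr overlaps between control and dbdb.

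The alpha-class transferases, which conjugate products of lipid peroxidation, were all upregulated in dbdb mice (4 of 4, where 13.1% of all genes were). Gsta1 (ENSMUSG00000074183) was at 0.442, 0.458 and 0.533 FPKM in control, 9.92, 3.997 and 3.12 in dbdb and 9.38, 6.55 and 7.71 in dbR libraries. Gsta2 (ENSMUSG00000057933), which had the highest mean of the class over the 9 libraries but lay below Gsta3 in control mice, was at 22.2, 20.5 and 27.3 FPKM in control, 239, 87.5 and 51.5 in dbdb and 248, 253 and 170.2 in dbR libraries. For both genes dbdb replicate 1 was far above the other dbdb libraries and within or close to the range of the dbR group. Against control, the log2 fold change of dbdb was 3.14 ± 0.34 (SE, adjusted p = 0.000198) for Gsta1 and 2.14 ± 0.44 (SE, adjusted p = 0.00601) for Gsta2. Those in dbR vs. dbdb, 0.63 and 1.10, did not pass (adjusted p = 0.375 and 0.233), but without dbdb replicate 1 both did (adjusted p = 0.0472 and 0.0363). Without that library, the log2 fold change of Gsta2 was 1.53 in dbdb mice against control and 1.71 in dbR mice against dbdb mice, and that of Gsta1 in the latter was 1.12. With a pseudocount of 1, the value of Gsta1 against control was 2.04. The coding sequences of Gsta1 and Gsta2 were 98.5% identical over 81.6% of that of Gsta1, and Gsta2 was 98.5% identical to Gm10639, another listed gene of 9.92 FPKM on average, so the division of reads among these genes is uncertain. Gm10639 was at 2.08, 3.58 and 2.72 FPKM in control, 28.1, 8.40 and 6.92 in dbdb and 14.5, 12.8 and 10.2 in dbR libraries, again with the highest value in dbdb replicate 1.

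Gsta4, which prefers 4-hydroxynonenal, was at 24.0, 23.0 and 17.2 FPKM in control, 50.7, 33.5 and 31.4 in dbdb and 57.9, 64.1 and 52.1 in dbR libraries. Its level rose in dbdb vs. control by 0.83 ± 0.18 (log2, SE, adjusted p = 0.00841). All dbR libraries were above all dbdb libraries, but the difference of 0.62 did not pass (adjusted p = 0.128). Gsta3, whose promoter stretch was shown above, was at 65.9, 67.6 and 57.7 FPKM in control, 94.1, 78.9 and 83.8 in dbdb and 85.1, 95.1 and 102 in dbR libraries. It was upregulated by 0.42 ± 0.09 (SE, adjusted p = 0.00822), and dbR overlapped dbdb. Gsta4, Gsta1 and Gsta2 lie on chromosome 9 together with Gclc, whose end (position 77794485 of GRCm38) is 388 kb from the nearest end of Gsta4, 436 kb from that of Gsta1 and 537 kb from that of Gsta2, so genes with opposite changes stood within the same region.

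**Figure D3:**
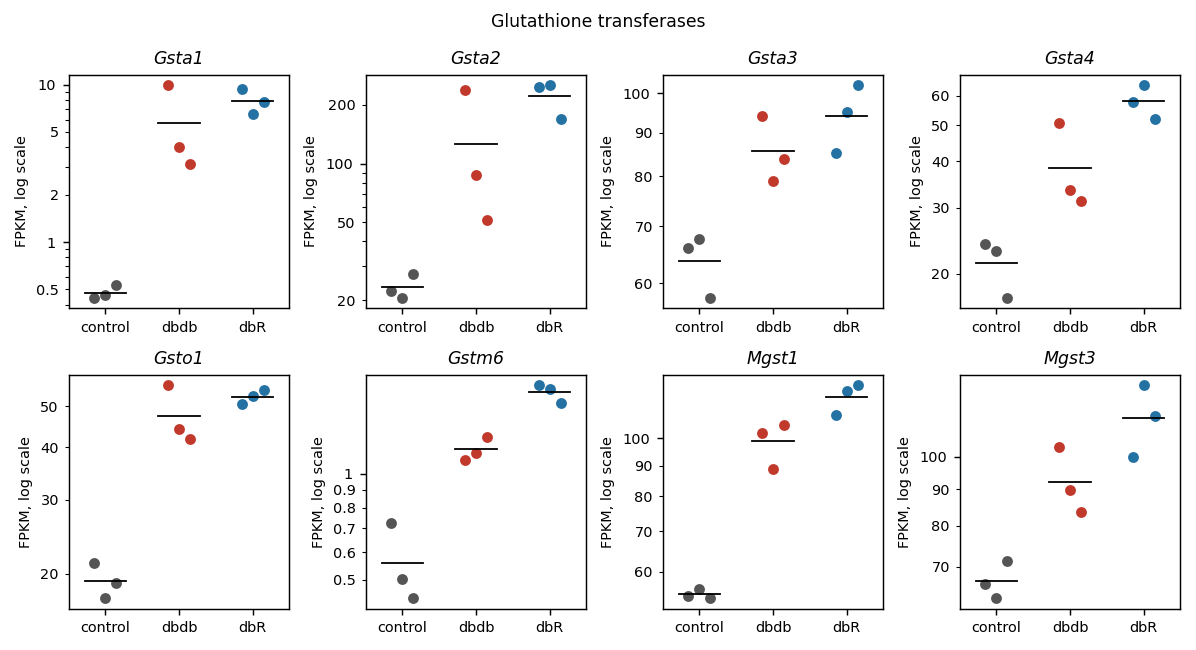
FPKM (y axis, log scale, a range of its own in each panel) of 8 glutathione transferases in the control, dbdb and dbR groups, with points for libraries and lines for the arithmetic mean of 3 libraries. Every db/db library lies above every control library in all 8 panels, and dbdb replicate 1 (left red point) stands above the other dbdb libraries for Gsta1, Gsta2 and Gsta4.

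Among the mu-class transferases, which have a broad range of substrates, 1 of 6 was upregulated in dbdb mice, a share near the 13.1% of all genes that were higher, and 4 of 6 were in dbR vs. control, where 12.3% of all genes were. Whether these counts differ was not tested. Gstm6 was at 0.726, 0.502 and 0.444 FPKM in control, 1.10, 1.15 and 1.28 in dbdb and 1.78, 1.74 and 1.59 in dbR libraries. The 3 groups did not overlap. Its log2 fold change was 0.97 ± 0.17 (SE, adjusted p = 0.00264) between dbdb and control and 0.50 between dbR and dbdb (adjusted p = 0.17). The first of these was 0.48 with a pseudocount of 1 and still passed. Gstm2 was at 18.1, 15.8 and 17.6 FPKM in control, 16.8, 18.5 and 22.5 in dbdb and 26.6, 31.9 and 27.5 in dbR libraries. Only the dbR group stood apart, by 0.73 from control (adjusted p = 0.00134), while the 0.58 from dbdb just missed the threshold (adjusted p = 0.0516). Gstm2 and Gstm6 share 89.0% of the bases over 70.9% of the coding sequence of Gstm2, and Gstm6 was far the lower of them, so its reads could be confused with those of Gstm2.

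Gstm1, the most abundant mu-class gene, was at 208, 169.5 and 192 FPKM in control, 195, 157 and 134 in dbdb and 201.1, 187 and 198 in dbR libraries, which overlapped in every comparison. Its log2 fold change in dbdb mice, -0.24 (adjusted p = 0.184), became -0.38 without dbdb replicate 1 and then passed (adjusted p = 0.0256). Gstm5 was at 132, 126 and 127 FPKM in control, 152, 144 and 134 in dbdb and 136, 173 and 177 in dbR libraries. Gstm7 was at 4.31, 5.08 and 2.91 FPKM in control, 6.33, 5.20 and 4.18 in dbdb and 8.24, 5.69 and 6.42 in dbR libraries. Gstm5 and Gstm7 passed in dbR vs. control at 0.33 (adjusted p = 0.0355) and 0.73 (adjusted p = 0.0349) on the log2 scale, and their dbdb libraries lay between the other groups on average. The call of Gstm5 was lost without any control replicate, dbdb replicate 2, dbR replicate 2 or dbR replicate 3 (adjusted p from 0.0519 to 0.119), and that of Gstm7 without control replicate 1, control replicate 3, dbdb replicate 2, dbR replicate 1 or dbR replicate 3 (0.0504 to 0.122). Other settings ended them too, 4 for Gstm5 (0.0508 to 0.0670) and 3 for Gstm7 (0.0501 to 0.0600). Gstm4 (3.63 to 6.57 FPKM over all libraries) passed in no comparison.

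The pi-class genes passed in no comparison with all libraries and the values as deposited. Gstp1 was at 91.7, 86.0 and 97.2 FPKM in control, 100.4, 91.8 and 76.5 in dbdb and 100.4, 99.2 and 114 in dbR libraries, with an interval of -0.26 to 0.18 for the log2 fold change between dbdb and control. Gstp2 (1.73 to 5.14 FPKM) is 98.8% identical to Gstp1 over 91.9% of its coding sequence, and its values are uncertain for that reason. Without control replicate 1, Gstp2 was lower in dbdb mice than in control (-0.88, adjusted p = 0.0298). Gstp1 passed in dbR vs. control under quantile normalization and with mitochondrial genes left out (adjusted p = 0.0265 in the latter).

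Of the theta-class genes, which act on small halogenated compounds and hydroperoxides, Gstt1 passed in all 3 comparisons, though in dbR vs. dbdb it did so in only 10 of 21 alternatives, and not without control replicate 2, any dbdb replicate, dbR replicate 2 or dbR replicate 3 (adjusted p from 0.0600 to 0.186). Gstt1 (ENSMUSG00000001663, chromosome 10) was at 98.8, 90.2 and 84.6 FPKM in control, 119, 124 and 109 in dbdb and 148, 185 and 179 in dbR libraries. The 3 groups did not overlap. Its log2 fold change was 0.37 ± 0.09 (SE, adjusted p = 0.0182) for dbdb over control, 0.53 ± 0.09 (SE, adjusted p = 0.0426) for dbR over dbdb and 0.90 (adjusted p = 0.0002) for dbR over control. Gstt3 was at 26.4, 23.7 and 24.2 FPKM in control, 31.2, 32.9 and 26.7 in dbdb and 32.9, 37.2 and 32.8 in dbR libraries, a rise of 0.29 ± 0.09 (SE, adjusted p = 0.0362) in dbdb vs. control, with dbdb and dbR overlapping. Gm20441, with a mean of 0.0146 FPKM, overlaps Gstt3 on the same strand. Without control replicate 2, control replicate 3 or dbdb replicate 2, neither Gstt1 (adjusted p from 0.0504 to 0.0659) nor Gstt3 passed in dbdb vs. control, and Gstt3 did not pass without dbdb replicate 1 either (0.0968 to 0.125 over these 4). Gstt2 (103 to 143 FPKM) passed in no comparison.

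The omega-class gene Gsto1, a dehydroascorbate reductase and thioltransferase, was upregulated in dbdb mice. It was at 21.2, 17.5 and 19.0 FPKM in control, 56.1, 44.2 and 41.9 in dbdb and 50.6, 52.9 and 54.6 in dbR libraries. Control libraries lay far below the rest, and dbdb and dbR overlapped. Against control, Gsto1 of dbdb mice rose by 1.29 ± 0.11 (log2, SE, adjusted p = 4.95e-05), and dbR exceeded dbdb by 0.16 (95% interval -0.08 to 0.40). Its neighbour Gsto2 was at 0.101, 0.131 and 0.0912 FPKM in control, 0.333, 0.515 and 0.159 in dbdb and 0.329, 0.387 and 0.308 in dbR libraries, with a log2 fold change of 0.99 ± 0.30 (SE, adjusted p = 0.0373) for dbdb and 1.09 (adjusted p = 0.027) for dbR, each against control. With a pseudocount of 1 these values were 0.26 and 0.28, and neither passed (adjusted p = 0.0579 and 0.0505). The call in dbdb vs. control was also lost when any library other than dbdb replicate 3 was left out (adjusted p from 0.0515 to 0.127). That in dbR vs. control was lost without control replicate 1, control replicate 3 or any dbR library (0.0551 to 0.0831).

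Gstk1, a mitochondrial and peroxisomal transferase, was at 60.0, 51.7 and 57.2 FPKM in control, 67.7, 61.3 and 53.9 in dbdb and 78.1, 87.1 and 90.4 in dbR libraries. Control and dbdb overlapped, and all dbR libraries were above them. The difference between dbR and dbdb of 0.49 just missed the threshold (adjusted p = 0.0516), and that between dbR and control of 0.60 passed (adjusted p = 0.00162). Gstz1, the maleylacetoacetate isomerase of tyrosine breakdown, was the transferase that passed as lower, with 219, 212 and 224 FPKM in control, 198, 178 and 174 in dbdb and 197, 215 and 218 in dbR libraries. It fell by 0.25 on the log2 scale in dbdb mice (adjusted p = 0.021). That call was lost without control replicate 1, control replicate 3, dbdb replicate 2 or dbdb replicate 3 (adjusted p from 0.0579 to 0.0719). It was also lost with mitochondrial genes left out (0.164) and with a block for the replicate number (0.0512).

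The microsomal enzymes conjugate glutathione and reduce lipid hydroperoxides in membranes. Of those tested, 2 of 2 were upregulated in dbdb mice, where 13.1% of all genes were, and Mgst2 was below the minimum level. Mgst1 was at 54.6, 56.2 and 54.2 FPKM in control, 102, 89.0 and 105 in dbdb and 109, 119.5 and 122 in dbR libraries. The 3 groups did not overlap, and the control libraries lay very close together. The log2 fold change was 0.84 ± 0.07 (SE, adjusted p = 5.84e-05) between dbdb and control and 0.25 between dbR and dbdb (adjusted p = 0.131). Mgst3 was at 66.2, 63.2 and 71.3 FPKM in control, 103, 89.8 and 83.7 in dbdb and 99.9, 126 and 114 in dbR libraries, and it was upregulated by 0.46 ± 0.10 (SE, adjusted p = 0.00819). Here dbR overlapped dbdb. Summed over all transferases, microsomal ones included, the level was 1161 to 1230 FPKM in control, 1247 to 1684 in dbdb and 1705 to 1876 in dbR libraries, and these ranges did not overlap.

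Gpx3 (ENSMUSG00000018339), the secreted glutathione peroxidase of the proximal tubule, was by far the most abundant of the 51 genes. It was at 14716, 13606 and 13212 FPKM in control, 20035, 21052 and 19944 in dbdb and 19139, 20460 and 21915 in dbR libraries. The control libraries lay below all others, the SD within a group was 615 to 1388 FPKM, and the mean in dbdb mice was 1.47 times that in control mice. The log2 fold change of 0.56 (95% interval 0.13 to 0.98) nevertheless missed the threshold in dbdb vs. control (adjusted p = 0.0569), as did the 0.57 of dbR over control (adjusted p = 0.057). In each of these comparisons 8 of 21 alternatives called it, and the adjusted p in dbdb vs. control ranged from 1.37e-05 to 0.364 over the alternatives. With mitochondrial genes left out it passed (adjusted p = 0.000178 in dbdb vs. control). Its log2 fold change relative to the median of all genes was then 0.57, beside 0.56 with the values as deposited. Gpx3 made up 2.57% to 3.01% of the FPKM outside the mitochondrial genes in control libraries, 4.42% to 4.76% in dbdb and 4.34% to 4.61% in dbR libraries. All other genes matched by symbol together held 1.66% to 1.74%, 1.63% to 1.69% and 1.74% to 1.78%.

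Of the other peroxidases, Gpx1, the cytosolic enzyme, had 1612 to 2021 FPKM over the 9 libraries and Gpx4, which reduces lipid hydroperoxides in membranes, had 531 to 715. Neither passed in any comparison. Gpx6 was at 15.8, 13.1 and 14.2 FPKM in control, 17.9, 15.6 and 19.0 in dbdb and 19.0, 20.2 and 18.2 in dbR libraries. Control and dbdb overlapped slightly, and the rise of 0.28 only just passed (adjusted p = 0.0491). It was lost in 7 of 9 fits with a library left out, all but those without control replicate 1 and dbdb replicate 2 (adjusted p from 0.0585 to 0.152). A further 6 settings ended it too (0.0507 to 0.0817), a block for the replicate number among them. Gpx7, an enzyme of the endoplasmic reticulum, stayed at 0.600 to 1.42 FPKM and passed in no comparison. Gpx8, also of the endoplasmic reticulum, is described with the effect of rosiglitazone.

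Among the peroxiredoxins, which reduce peroxides through a reactive cysteine, 1 of 6 was downregulated in dbdb mice, a share near the 13.4% of all genes that were lower. Prdx1 was at 777, 792 and 829.9 FPKM in control, 621, 537 and 528 in dbdb and 555, 641 and 636 in dbR libraries. All control libraries were above those of db/db mice. The log2 fold change was -0.51 ± 0.09 (SE, adjusted p = 0.0026) for dbdb and -0.39 (adjusted p = 0.0106) for dbR, each against control. Prdx5, the most abundant family member, was at 871, 834 and 962 FPKM in control, 732, 759.8 and 766 in dbdb and 750.2, 826 and 876 in dbR libraries. Its dbdb values were below those of control, but the difference of -0.24 did not pass (adjusted p = 0.0637, and 0.0428 without dbR replicate 1). Prdx2 (log2 fold change 0.01, 95% interval -0.15 to 0.17), the mitochondrial Prdx3 (-0.14) and Prdx6 (-0.04) did not pass either. Markers of red blood cells, which hold much Prdx2, summed to 7.81 to 104 FPKM in control and 6.73 to 17.5 in dbdb libraries, and their part in the values of Prdx2 was not tested. Srxn1, the sulfiredoxin that repairs overoxidised peroxiredoxins, was upregulated instead. It was at 17.5, 18.3 and 18.3 FPKM in control, 21.3, 25.6 and 25.5 in dbdb and 22.4, 21.9 and 23.5 in dbR libraries, a log2 fold change of 0.41 ± 0.08 (SE, adjusted p = 0.00362), and in dbR vs. control it was 0.32 (adjusted p = 0.0128).

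Both thioredoxins, the small proteins that hand electrons to peroxiredoxins, were modestly downregulated in dbdb mice, where 13.4% of all genes were lower. Txn1, the cytosolic form, was at 224, 221 and 248 FPKM in control, 179, 187 and 213 in dbdb and 189, 199.9 and 210.0 in dbR libraries. Txn2, the mitochondrial form, was at 122, 114 and 136 FPKM in control, 102, 105 and 97.3 in dbdb and 109.7, 119 and 118 in dbR libraries. They fell by 0.26 (adjusted p = 0.0354) and 0.29 (adjusted p = 0.0169) on the log2 scale. The call of Txn1 was lost without control replicate 1, 2 or 3, dbdb replicate 1 or 2 or dbR replicate 2 (adjusted p from 0.0507 to 0.116) and that of Txn2 without control replicate 3 or dbdb replicate 3 (0.0521 to 0.0534). With mitochondrial genes left out, the adjusted p was 0.319 for Txn1 and 0.0846 for Txn2. The reductases passed in no comparison. Txnrd1 was at 41.2, 40.1 and 36.8 FPKM in control, 34.9, 41.5 and 41.4 in dbdb and 41.9, 38.9 and 38.9 in dbR libraries (log2 fold change in dbdb vs. control -0.01, 95% interval -0.18 to 0.17), Txnrd2 ranged from 11.8 to 15.1 FPKM and Txnrd3 from 6.53 to 8.76.

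Of catalase and the superoxide dismutases, 3 of 4 were downregulated in dbdb mice, where 13.4% of all genes were, but the calls of Cat and Sod3 depended on the setting. Sod1, the cytosolic copper-zinc enzyme, was at 810.1, 773 and 915 FPKM in control, 546, 523 and 500.4 in dbdb and 567, 640.1 and 683 in dbR libraries. The 3 groups did not overlap, with dbR between the others. Its log2 fold change was -0.67 ± 0.09 (SE, adjusted p = 0.000773) between dbdb and control and 0.26 between dbR and dbdb, which did not pass (adjusted p = 0.182), and it was still lower in dbR than in control (-0.40, adjusted p = 0.0116). Cat, the peroxisomal catalase, was at 521, 516 and 535 FPKM in control, 443, 460.2 and 372 in dbdb and 453, 449 and 462 in dbR libraries. Sod3, the extracellular dismutase, was at 108, 91.7 and 91.8 FPKM in control, 76.3, 83.1 and 75.9 in dbdb and 77.4, 71.1 and 79.5 in dbR libraries. Both fell by 0.31 in dbdb mice (adjusted p = 0.0208 for Cat and 0.0174 for Sod3). Cat did not pass without control replicate 1 or 3 (adjusted p from 0.0547 to 0.0613) and Sod3 without control replicate 1 or dbdb replicate 1 or 3 (0.0512 to 0.0523), and with mitochondrial genes left out they were at 0.124 and 0.218. Under quantile normalization Cat and Sod3 did not pass either (0.0684 and 0.0909). In dbR vs. control Sod3 passed (-0.35, adjusted p = 0.00974). Sod2, the mitochondrial manganese enzyme, was at 122, 122 and 134 FPKM in control, 124, 126 and 114 in dbdb and 115, 125 and 127 in dbR libraries, with overlap throughout and an interval of -0.20 to 0.10 for the log2 fold change in dbdb vs. control.

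Neither NRF2 nor its inhibitor passed in any comparison with the values as deposited. Nfe2l2 was at 31.3, 33.1 and 30.6 FPKM in control, 35.7, 35.1 and 35.6 in dbdb and 31.4, 37.2 and 34.0 in dbR libraries. Keap1 was at 12.0, 11.1 and 11.0 FPKM in control, 10.2, 10.5 and 11.3 in dbdb and 10.7, 9.69 and 10.01 in dbR libraries. The log2 fold changes in dbdb vs. control were 0.16 (adjusted p = 0.0986) and -0.09 (adjusted p = 0.381). All dbdb libraries of Nfe2l2 lay above those of control, and it passed under quantile normalization and with mitochondrial genes left out (0.32, adjusted p = 0.00772). Relative to the median of all genes, its value with mitochondrial genes left out was 0.17, as it was with the values as deposited. Hmox1, the haem oxygenase that NRF2 and other factors induce, was at 13.7, 17.5 and 17.7 FPKM in control, 12.6, 12.4 and 12.3 in dbdb and 8.87, 9.29 and 11.6 in dbR libraries. The groups did not overlap, and the order ran from control over dbdb to dbR. Hmox1 fell by 0.38 in dbdb mice against control (adjusted p = 0.0405), a call lost without control replicate 2, control replicate 3, any dbdb replicate or dbR replicate 2 (adjusted p from 0.0516 to 0.128) and with mitochondrial genes left out (0.155). In dbR vs. control it fell by 0.71 (adjusted p = 0.00239), which no alternative ended, and in dbR vs. dbdb its value was -0.33 (adjusted p = 0.198). Macrophages, a source of Hmox1, had markers that summed to 48.8 to 60.0 FPKM in control, 24.4 to 45.2 in dbdb and 35.1 to 47.1 in dbR libraries, and their part in the values of Hmox1 was not tested.

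Rosiglitazone treatment was compared with vehicle in db/db mice to find which of these genes it changed. Prdx4 (ENSMUSG00000025289, chromosome X), the peroxiredoxin of the endoplasmic reticulum, was at 22.2, 19.3 and 20.8 FPKM in control, 22.5, 23.7 and 20.0 in dbdb and 28.8, 33.2 and 32.3 in dbR libraries. Gpx8 (ENSMUSG00000021760, chromosome 13), a peroxidase of the same compartment, was at 7.25, 6.46 and 6.05 FPKM in control, 5.79, 5.31 and 6.60 in dbdb and 8.10, 10.4 and 9.59 in dbR libraries. Nqo1 (ENSMUSG00000003849, chromosome 8), the quinone reductase that is a classic target of NRF2, was at 36.0, 34.2 and 37.6 FPKM in control, 36.5, 34.0 and 29.9 in dbdb and 43.8, 44.5 and 44.6 in dbR libraries. In all 3 genes control and dbdb overlapped and every dbR library lay above all others. The log2 fold changes in dbR vs. dbdb were 0.51 ± 0.09 for Prdx4 (SE, adjusted p = 0.0331), 0.66 ± 0.12 for Gpx8 (SE, adjusted p = 0.0421) and 0.41 ± 0.07 for Nqo1 (SE, adjusted p = 0.0433), beside the 0.53 of Gstt1. In dbR vs. control they were 0.59, 0.50 and 0.30, and all 3 passed (adjusted p = 0.001, 0.01248 and 0.0153), that of Nqo1 not without control replicate 2 (0.0545).

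These 4 calls were near the threshold. None was made with only the 6 libraries of the comparison, without a filter on low values, without a variance trend or with the highest transcript of each gene, nor without dbdb replicate 2, dbR replicate 2 or dbR replicate 3. With mitochondrial genes left out, Gpx8 was not called either (adjusted p = 0.0540). Only 1 of the 4 was made without control replicate 2 (Prdx4), without dbdb replicate 1 (Nqo1) and without dbdb replicate 3 (Gpx8). The adjusted p reached 0.164 for Prdx4, 0.182 for Gpx8, 0.186 for Gstt1 and 0.182 for Nqo1 when a library was left out, and their sign was the same in all 21 alternatives. Scaling to the 75th percentile, quantile normalization, robust estimation and a minimum of 1 FPKM each gave 6 genes, and Gstm2 and Gstk1 were called in all of these settings.

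At an unadjusted p under 0.05, 16 of the 51 genes were higher in dbR than in dbdb mice (31.4%, where 9.43% of all genes were) and 1, Hmox1, was lower (1.96%, where 8.05% were). All 3 dbR libraries lay above all 3 dbdb libraries for 12 of the 51 genes (23.5%, where 10.7% of all genes did so) and below them for 2, Gclm and Hmox1 (3.92%, where 11.9% did so). The median log2 fold change of the 51 genes was 0.16, beside -0.002 over all genes. With mitochondrial genes left out these medians were 0.10 and -0.06. Endothelial markers moved in the same comparison, as 3 of 5 (Kdr, Emcn and Tek) were higher in dbR than in dbdb mice (where 0.564% of all genes were) and their summed level was 101 to 110.5 FPKM in control, 74.3 to 81.3 in dbdb and 105 to 125 in dbR libraries. Of the fibroblast markers 1 of 3, Pdgfrb, was higher in that comparison too, and their sum was 14.3 to 22.3 FPKM in control, 11.4 to 16.7 in dbdb and 18.4 to 25.3 in dbR libraries. The part of either cell type in the values of the 4 genes was not tested.

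**Figure D4:**
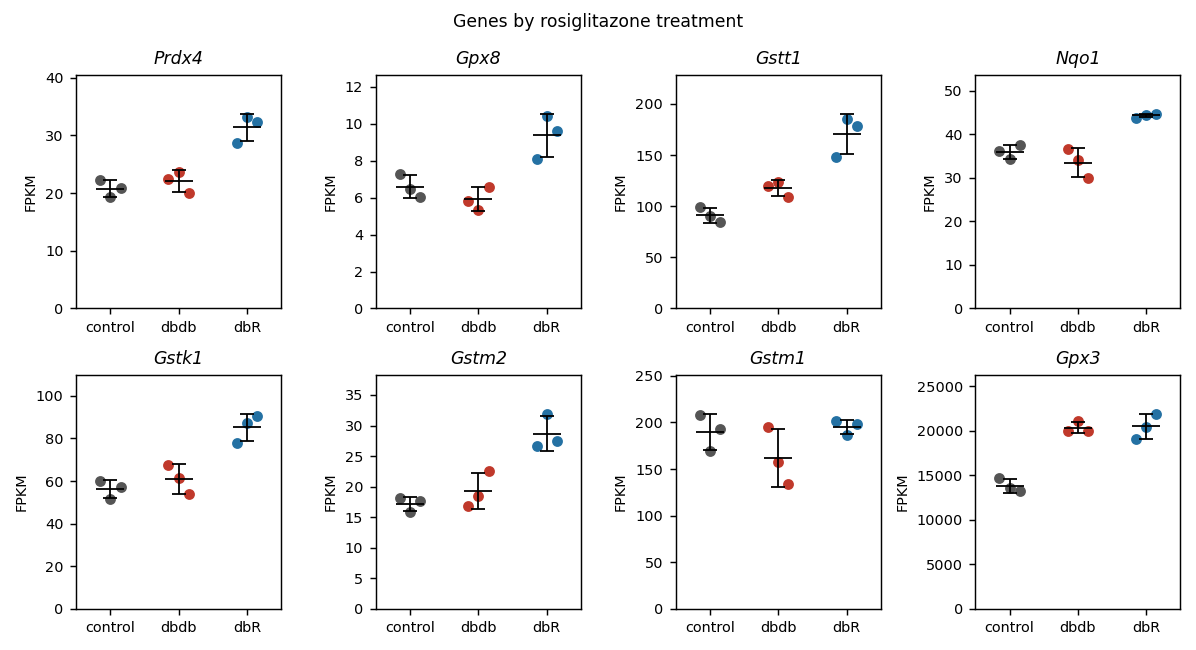
FPKM (y axis, from 0) of the 4 genes that passed in dbR vs. dbdb (top row) and of Gstk1, Gstm2, Gstm1 and Gpx3 (bottom row), by group. Points are libraries, long horizontal lines the mean and whiskers the SD of 3 libraries. In the top row every dbR library is above every other library. For Gpx3 the control libraries lie below those of both db/db groups, though neither difference passed the test, and dbdb and dbR overlap.

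In dbR vs. control the transferases made up 15 of the 20 upregulated genes, and 24 of the 57 genes matched by symbol. Of all genes tested, 12.3% were higher in this comparison. These were Gsta1, Gsta2, Gsta3, Gsta4, Gstm2, Gstm5, Gstm6, Gstm7, Gstt1, Gstt3, Gstk1, Gsto1, Gsto2, Mgst1 and Mgst3. The other 5 were Gpx6, Gpx8, Prdx4, Nqo1 and Srxn1. With the pseudocount of 0.1, the largest log2 fold changes were 3.78 for Gsta1 (adjusted p = 7.95e-05) and 3.24 for Gsta2 (adjusted p = 0.00072), followed by 1.48 for Gstm6, 1.45 for Gsto1 and for Gsta4, and 1.09 for Mgst1 and for Gsto2. This order depends on the pseudocount for the low genes, since with a pseudocount of 1 the value was 2.58 for Gsta1, 0.80 for Gstm6 and 0.28 for Gsto2, while over all alternatives it was at least 3.14 for Gsta2, 1.39 for Gsto1 and 1.05 for Mgst1. The 7 downregulated genes were Gclc (-0.83), Gclm (-1.23), Gss (-0.79), Prdx1, Sod1, Sod3 and Hmox1. Of the 27 genes, 22 were called under all 21 alternatives. The exceptions were Gstm5, Gstm7, Gsto2 and Nqo1, given above, and Sod3, which had an adjusted p of 0.057 with mitochondrial genes left out.

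**Figure D5:**
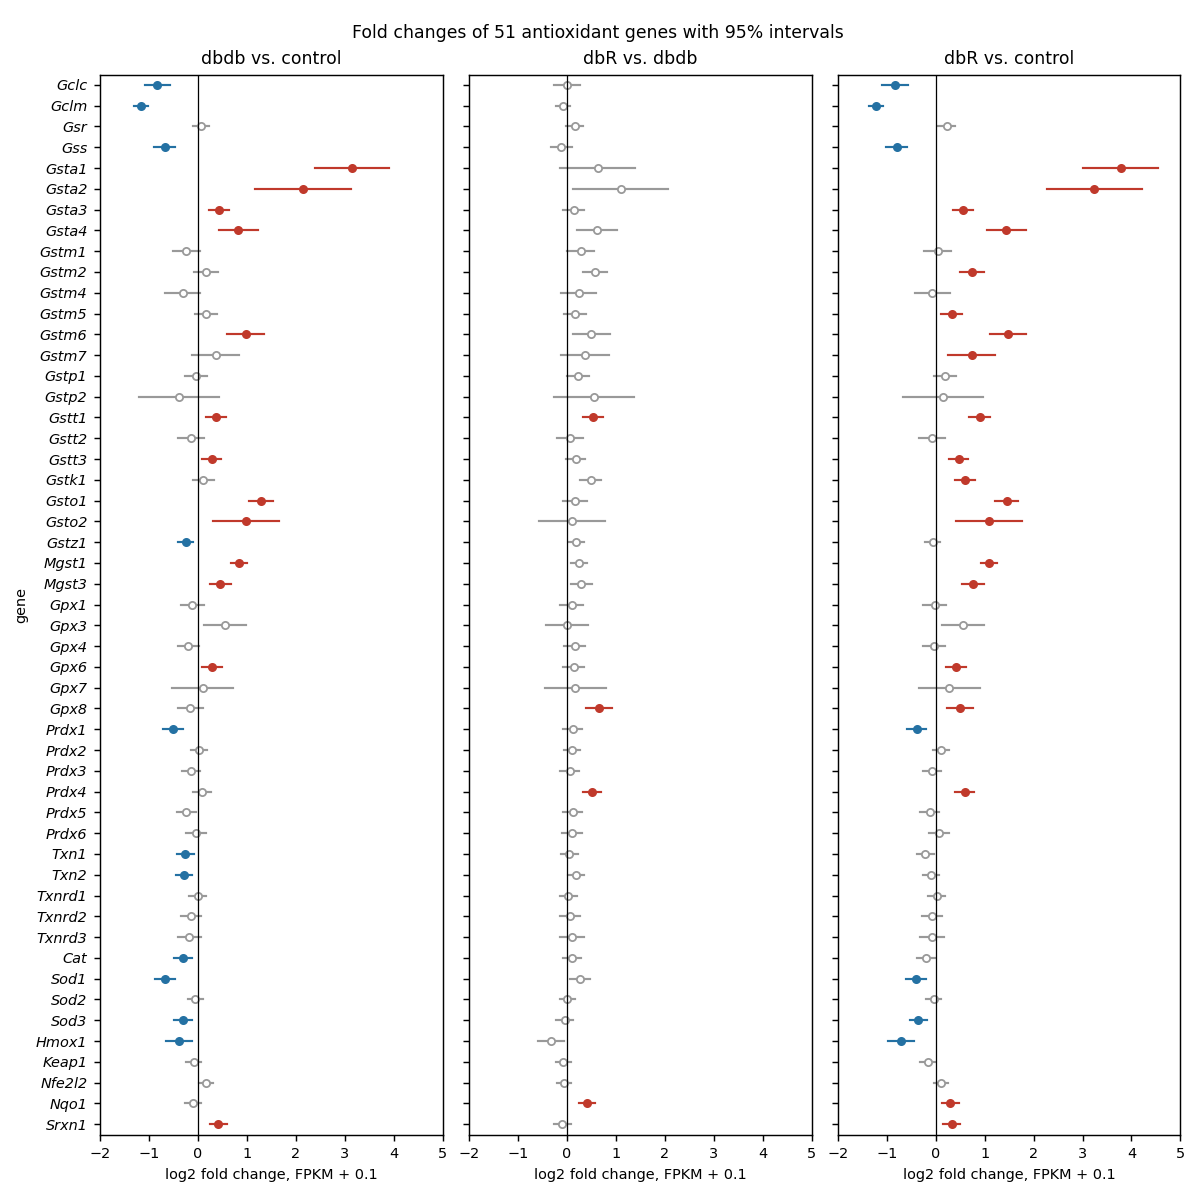
Log2 fold change on the log2(FPKM + 0.1) scale (x axis) of the 51 genes (y axis) in the 3 comparisons, with 95% intervals from limma. Filled points are genes with an adjusted p under 0.05, red when higher and blue when lower. From left to right, the panels hold 24, 4 and 27 filled points.

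Genes around these pathways were counted from lists of names. In dbdb vs. control 13.1% of all genes tested were higher and 13.4% lower, the background for these lists. Of 32 genes of glutathione turnover, conjugate handling and transport that could be tested, 6 were upregulated and 10 downregulated in dbdb mice (median log2 fold change -0.11). Acy3, which deacetylates mercapturic acids, fell most, from 836 to 1165 FPKM in control to 238 to 295 in dbdb libraries (log2 fold change -1.87, adjusted p = 1.34e-05). Ggct, which releases oxoproline from gamma-glutamyl peptides, was at 6.88 to 16.3 FPKM in control and 2.72 to 3.59 in dbdb libraries (-1.61, adjusted p = 0.00163). The conjugate exporter Abcc4 was at 9.64 to 15.0 FPKM in control and rose to 25.8 to 36.3 in dbdb libraries (1.40, adjusted p = 0.000394). Of 12 genes that supply NADPH, 4 were higher and 3 lower. They included malic enzyme Me1, which fell from 169 to 187 FPKM in control to 74.9 to 85.3 in dbdb libraries (-1.15, adjusted p = 1.03e-05), the mitochondrial Me3, which rose (0.71), and the kinase Nadk, which fell (-0.50).

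Of 26 other targets and partners of NRF2, 7 were higher and 7 lower in dbdb mice. Besides Me1, the largest changes were those of the aldose reductase Akr1b3, at 38.2 to 60.6 FPKM in control and 17.4 to 23.6 in dbdb libraries (-1.23, adjusted p = 0.000778), and the exporter Abcc3, at 0.269 to 0.499 and 0.832 to 1.26 FPKM (1.15, adjusted p = 0.0108, and 0.117 with the highest transcript of each gene). Of 28 thiol redox partners and selenoproteins, 7 were higher and 5 lower. The selenium carrier Sepp1 was at 1713 to 2522 FPKM in control and 662 to 731 in dbdb libraries (-1.49, adjusted p = 0.000117), while the metal-binding Mt1 and Mt2 were upregulated (1.47 and 1.26, adjusted p = 5.84e-05 and 0.000236). Of 13 oxidases that make hydrogen peroxide, 3 were higher and 2 lower, with Maob (log2 fold change 1.72), Xdh (from 7.22 to 8.47 FPKM in control to 13.2 to 21.1 in dbdb libraries) and Paox (0.42) upregulated. The call of Paox (adjusted p = 0.0416) was made in 9 of 21 alternatives and was lost without any library other than control replicate 1 (up to 0.120). In dbR vs. dbdb none of the genes on these 5 lists passed, where only 0.743% of all genes did. In dbR vs. control, where 12.3% of all genes tested were higher and 11.8% lower, the counts of higher and lower genes were 7 and 8, 4 and 2, 8 and 7, 7 and 4, and 4 and 2, in the same order.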

How the data were processed

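Total RNA from the renal cortex of 9 mice was depleted of ribosomal RNA, and strand-specific libraries were sequenced as paired reads of 150 bases. The authors aligned the reads to the mouse genome with TopHat2 (version 2.0.9, GRCm38.p2 in the submitters' processing notes), and deposited for each library the FPKM of every mRNA transcript from Cufflinks (version 2.1.1). FPKM is divided by transcript length and by mapped fragments. For genes of several transcripts it depends on how Cufflinks divided the reads, and it holds no counts, so no count model was used. FPKM of lncRNA transcripts was not used here, 0 columns lacked a sample, and groups came from the sample titles.

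FPKM was summed over the transcripts of each gene, with no further scaling, and genes with a mean of at least 0.1 FPKM were kept. log2(FPKM + 0.1) was fitted with limma 3.58.1 (R 4.3.3) in 1 model over the 9 libraries, letting the variance follow the level. This scale understates the change of low genes. Tests were two-sided and Benjamini-Hochberg adjusted over all 14537 genes. With 1 library per mouse, the spread is that between mice. In simulated libraries of the same spread limma recovered 84%, 80% and 78% of 200 genes changed by 1 on the log2 scale in dbdb vs. control, dbR vs. dbdb and dbR vs. control, and 51%, 55.5% and 54% of those changed by 0.5. These rates hold for the simulated comparisons only.

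The genes and gene lists were chosen with earlier results of these data known. Values in every library are given for genes called in any comparison, for the most abundant gene of each family and for the genes of glutathione synthesis, Cat, Sod1 to Sod3 and the NRF2 group with Txnrd1. From each list of other pathway genes, those called in dbR vs. dbdb and the 3 called genes with the largest change in dbdb vs. control were named. Marker genes, and genes near a threshold in dbR vs. dbdb, were named beside the result they bear on. Older symbols were matched through the reference tables. Positions are from GENCODE and promoters from RefSeq (GRCm38.p6). Coding sequences of GENCODE transcripts were compared with blastn 2.17.0, since no protein table was used here. Alternatives were a pseudocount of 1 or 0.01, no filter or a minimum of 1 FPKM, 3 other scalings, only the 6 libraries compared, no variance trend, robust estimation, the highest transcript of each gene, a block for the replicate number and leaving out each library. Figures were drawn with matplotlib 3.10.9 under python 3.11.15.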

Additional observations from a re-analysis of the deposited data

How the results depend on the processing

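Of the genes called, 14 of 24 in dbdb vs. control, 0 of 4 in dbR vs. dbdb and 22 of 27 in dbR vs. control were called under all 21 alternatives, and none changed sign. With a library left out, 15 to 24, 0 to 3 and 24 to 29 of the 51 genes passed, and 2761 to 3830, 2 to 141 and 2479 to 3569 of all genes. The lowest count in dbdb vs. control, 15, came without control replicate 3, and that of all genes in dbR vs. dbdb, 2, without dbR replicate 2. Leaving out dbdb replicate 1 or 2 or dbR replicate 1 or 3 gave 36, 31, 70 and 10 of all genes there, where 108 passed. Other settings gave 31 with no filter, 166 with a minimum of 1 FPKM, 224 with scaling to the 75th percentile, 234 with quantile normalization, 22 with only 6 libraries, 18 with no variance trend, 166 with robust estimation and 49 with the highest transcript of each gene. With mitochondrial genes left out, 48.6% of the genes called in dbR vs. dbdb were higher, where 75.9% were otherwise. Of the 51 genes, 0 passed in dbR vs. dbdb with only 6 libraries, with no variance trend and with the highest transcript (15, 13 and 17 at an unadjusted p under 0.05), where limma made 4 calls. With no filter 0 of then 56 genes passed (15 at an unadjusted p under 0.05). The cause of these differences was not tested, except that leaving out libraries lowers the number of samples. Prdx2, not called in dbdb vs. control at 0.01, changed sign without control replicate 1 (-0.00719), control replicate 2 (-0.0167) and dbdb replicate 1 (-0.00839), and ranged from -0.0167 to 0.0573 with a library left out.

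The labels do not say whether replicate numbers pair the mice. The deviations of libraries with the same number correlated between -0.175 and 0.0615, and 0 of 9 pairs exceeded 0.1. With 3 libraries a group, such values cannot show whether mice were matched. With the replicate block 23 of all genes and 0 of the 51 passed in dbR vs. dbdb (16 at an unadjusted p under 0.05), and 22 and 27 of the 51 passed in dbdb vs. control and dbR vs. control.

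With 3 mice a group, changes of 0.5 on the log2 scale were recovered in little more than every other simulated gene, so smaller changes were often not detectable.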
